A study of Mus musculus with 6 samples.

Results

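The myogenic regulatory transcription factors are the nuclear proteins that commit a cell to skeletal muscle and then drive it to form a fibre. The 8 genes described here, Myf5, Myod1, Myog, Myf6, Mef2a, Mef2c, Mef2d and Six4, were chosen by name, and all 8 were found among the 23420 genes of the deposited table. RNA was sequenced from skeletal muscle satellite cells, the stem cells of muscle, in 3 Control and 3 Dnmt1 KO libraries. The animals were male C57BL/6 mice aged 7 weeks, bred from a Pax7-CreERT2 line and a line with floxed Dnmt1, and given tamoxifen or vehicle on each of 5 days. CreERT2 is a recombinase that tamoxifen activates, here in cells that express Pax7, and it removes the floxed DNA of Dnmt1, the enzyme that copies methylation marks after replication. The labels name the groups only as control and Dnmt1 KO and do not say which animals received vehicle or whether controls carried the recombinase. Whether each library stands for its own animal is not stated either, so p-values measure only the spread between these libraries, which may be technical.

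Libraries held 954786 to 2021725 reads, and values are the authors' scaled read counts, in which 1 read was worth 0.691 to 1.43 units. Dnmt1 itself had values of 614, 539 and 655 in the controls, against 74.6, 36.1 and 81.2 in the knockouts (adjusted p = 0.00121, limma). Of the markers of satellite cells and myoblasts, Pax7, Myf5, Myod1, Cdh15, Itga7 and Megf10 were above 58 in every library. Others were low, with Calcr, a marker of quiescent satellite cells, at 0 to 1.43, Cd34 at 0.952 to 13.8 and Chrdl2 at 0 to 8.57, and Cxcr4 ranged from 23.1 to 67.2. Mki67, which dividing cells express, lay between 623 and 965. Markers of other cell types were mostly low. Of 8 macrophage markers, only Laptm5, Cd68 and Cd14 were high enough to test. Laptm5 and Cd68 were higher in every knockout than in every control, as were 13.4% of all genes tested. Cd68 held only 1, 2 and 3 reads in the controls, against 7, 5 and 3 in the knockouts, so its separation rests on the scaling. Cd14 held 0 reads in each control, against 1, 1 and 5 in the knockouts. It reached the minimum for testing, a value of 1 in 3 libraries, only through the knockouts, so its separation was fixed in advance. Cd68 and Cd14 did not pass (adjusted p = 0.219 and 0.213, limma). Lum and Dpt of fibro-adipogenic progenitors and Ptprc and Emr1 (Adgre1) of macrophages were at 0 in all 6 libraries. The summed value of 8 macrophage markers was nevertheless 21.9 to 36.1 in the controls and 77.5 to 189 in the knockouts, with Laptm5 making up most of it in each library. That of 8 fibro-adipogenic markers was 378 to 695 and 674 to 1096, chiefly Col3a1 and Gsn. Of all genes tested 1.67% rose, and 0 of 4 endothelial and 0 of 2 Schwann cell markers passed. Laptm5 (adjusted p = 0.0391) and Gsn (adjusted p = 0.0431) rose, as the 1 of 3 and the 1 of 5 tested on their lists. Both calls were lost without any 1 library other than control replicate 2 and with a pseudocount of 0.1, and that of Gsn also with a stricter filter and on recovered reads. Whether any such other cells were present, or had a part in the results below, was not tested.

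MYF5, MYOD1, MYOG and MYF6 are basic helix-loop-helix (bHLH) proteins that pair with E proteins and bind the E box, a short DNA motif in the control regions of muscle genes. MYF5 and MYOD1 act early, in activated satellite cells and dividing myoblasts, MYOG acts as cells leave the cell cycle and differentiate, and MYF6 (MRF4) is best known from mature fibres. MEF2 proteins are MADS box factors that bind A/T-rich sites beside E boxes and act with the bHLH factors, and SIX4 is a homeodomain protein that binds MEF3 sites upstream of Myog and other muscle genes.

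The promoters of the factors carry these motifs unequally, and 3 are shown because their genes behaved differently across the libraries: Myog and Mef2c as the most variable members and Myf5 as the early factor with the lower knockout values. Sequences are the 250 bases before the RefSeq start site in GRCm38.p6 (the mm10 assembly), and in all 3 that site was the first base of the deposited gene model. RefSeq windows were found for 6 of the 8 genes, 9 in all because Six4 and Mef2c have several starts. Capitals mark E boxes (CANNTG), MEF2-like sites (CTANNNNTA) and MEF3 sites (TCAGGTTTC), each searched on both strands. Of 32851 RefSeq windows of this length, 66.2% held an E box, 19% a MEF2-like site and 0.387% a MEF3 site.
Myog, chr1:134289754-134290003, plus strand: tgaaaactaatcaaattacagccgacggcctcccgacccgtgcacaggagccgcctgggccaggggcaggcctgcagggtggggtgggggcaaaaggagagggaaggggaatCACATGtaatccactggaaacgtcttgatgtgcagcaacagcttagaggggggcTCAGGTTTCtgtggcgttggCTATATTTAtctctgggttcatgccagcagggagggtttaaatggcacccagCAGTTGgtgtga
Myf5, chr10:107486135-107486384, minus strand: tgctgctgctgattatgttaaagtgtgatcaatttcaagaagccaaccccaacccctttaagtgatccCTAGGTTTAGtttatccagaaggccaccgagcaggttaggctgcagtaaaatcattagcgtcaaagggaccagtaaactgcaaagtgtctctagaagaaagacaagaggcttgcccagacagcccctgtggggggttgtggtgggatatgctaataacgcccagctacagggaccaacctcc
Mef2c, chr13:83503784-83504033, plus strand: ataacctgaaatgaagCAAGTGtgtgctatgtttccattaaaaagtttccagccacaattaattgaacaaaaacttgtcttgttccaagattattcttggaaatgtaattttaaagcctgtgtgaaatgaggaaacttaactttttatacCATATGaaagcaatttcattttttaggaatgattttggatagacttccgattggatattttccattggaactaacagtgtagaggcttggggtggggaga

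The Myog window held all 3 motifs. Counting from -1 at the base before the start, E boxes began at -138 and -12, the MEF3 site at -84 and the MEF2-like site at -64. The Myf5 window held no E box and no MEF3 site, and its MEF2-like matches, at -182 and -181, overlap as 1 stretch read on both strands. The Mef2c window had E boxes at -234 and -100 and neither other motif. Of the other windows, those of Mef2a and Mef2d held none of the motifs, and the Six4 window at the deposited start held a MEF3 match at -99 on the strand opposite the gene. The third Mef2c window held an E box and a MEF2-like site. A match is a description of these letters, not evidence of binding.

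Myf5, whose gene lies on chromosome 10 at 107482908 to 107486134 (mm10, minus strand, 3 exons) beside that of Myf6, had values of 332, 242 and 467 in the libraries of control replicates 1, 2 and 3, against 212, 147 and 241 in the knockouts. The knockouts were all lower, but the highest of them and control replicate 2 nearly met. The means were 347 ± 114 and 200.3 ± 48.0 (SD, n = 3 each), and the log2 fold change came to -0.77 (SE 0.25, adjusted p = 0.184, limma), which did not pass. In bulk RNA such as this, fewer cells that express a gene and less RNA in each cell cannot be told apart.

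Myod1 (chromosome 7, 46376474 to 46379092, plus strand) was the most abundant member per length in 5 of the 6 libraries and the steadiest. It had 1534, 1704 and 1451 in the controls, against 1394, 1096 and 1209 in the knockouts. Again all knockouts lay below all controls, the nearest libraries being control replicate 3 and knockout replicate 1. The means were 1563 ± 129 and 1233 ± 150.4, with a log2 fold change of -0.35 (SE 0.16, adjusted p = 0.331). Its highest value was 1.55 times its lowest, against 3.17 times for Myf5.

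Six4 (chromosome 12, 73100259 to 73113245, minus strand), the homeodomain factor, had 88.3, 139.99 and 88.5 in the controls, against 74.6, 76.3 and 62.8 in the knockouts. All knockouts were lower here too, and control replicate 2 was the highest library. The log2 fold change came to -0.53 (SE 0.22, adjusted p = 0.272).

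Myog (chromosome 1, 134290004 to 134292548, plus strand), the factor of differentiation, spanned a 329-fold range over the libraries. It had 24.1, 1821 and 5.53 in the controls, against 905, 547 and 92.3 in the knockouts. Control replicate 2 was the highest of all libraries, control replicates 1 and 3 were the lowest, and the 3 knockouts lay between. The means were 617 ± 1043 and 515 ± 407. The log2 fold change came to 2.43 (SE 1.68, adjusted p = 0.525), and its sign rests on the scale. On recovered reads, where group means and not mean logarithms are compared, it was -0.30 with edgeR (adjusted p = 0.937) and -0.31 with DESeq2 (adjusted p = 0.988).

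Myf6 (chromosome 10, 107492860 to 107494729, minus strand) was barely expressed, with 2 to 11 reads a library. Its values were 6.02, 6.67 and 1.38 in the controls, against 15.8, 9.03 and 7.38 in the knockouts. It was the 1 member with every knockout above every control, which rests on the scaling. As reads, knockout replicate 3 held 6, against 6 and 7 in control replicates 1 and 2. The means were 4.69 ± 2.88 and 10.7 ± 4.44, and the log2 fold change of 1.15 (SE 0.54) did not pass (adjusted p = 0.346).

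**Figure D1:**
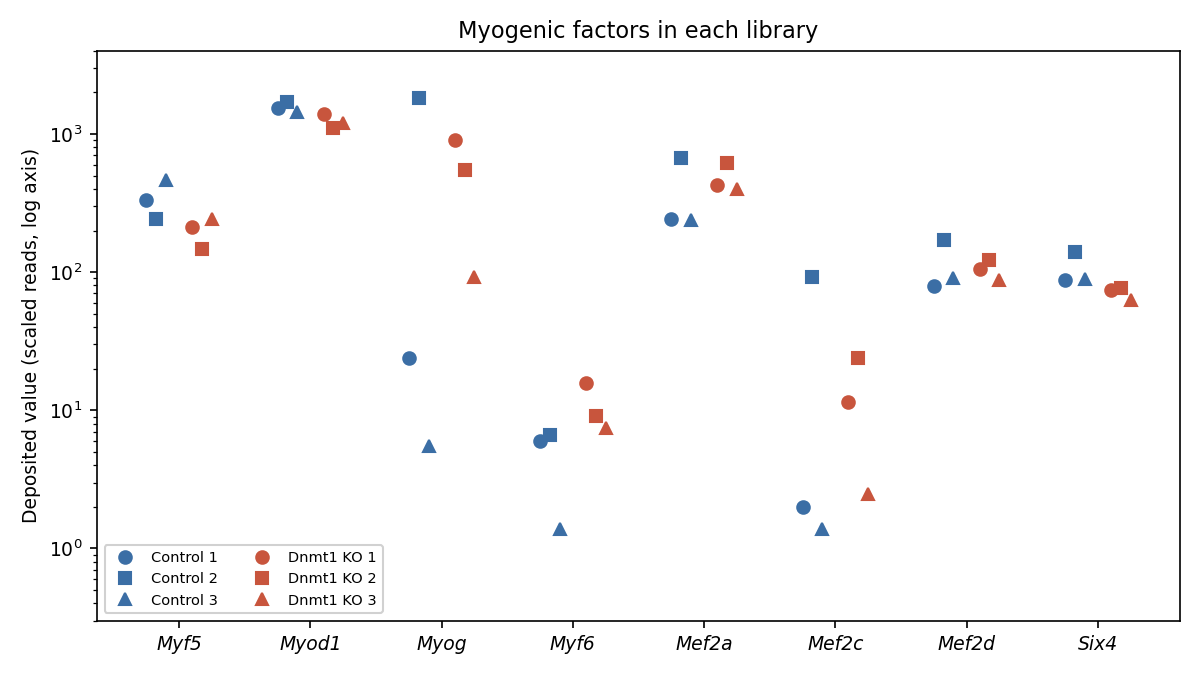
Deposited value (scaled reads, log axis) of each factor in each library, blue for Control and red for Dnmt1 KO, with replicates 1, 2 and 3 as circle, square and triangle. Myog runs from 5.53 to 1821 and Mef2c from 1.38 to 91.4, both highest in control replicate 2, while Myod1 stays between 1096 and 1704.

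Of the MEF2 genes, Mef2a (chromosome 7, 67233827 to 67372858, minus strand) had 241, 668 and 239 in the controls, against 424, 620.1 and 396 in the knockouts. Control replicate 2 again exceeded all, and the other controls lay below every knockout. The log2 fold change came to 0.48 (SE 0.36, adjusted p = 0.557). Mef2a has exons opposite those of Lysmd4, and no source used here gives the strand setting of the counting.

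Mef2c (chromosome 13, 83504034 to 83667079, plus strand, 12 exons) had 2.01, 91.4 and 1.38 in the controls, against 11.5, 24.1 and 2.46 in the knockouts. Control replicate 2 held 96 of its reads, and 3 of the other libraries held 2 reads each. Its log2 fold change of 0.24 (SE 1.26, adjusted p = 0.951) changed sign without control replicate 1 (-0.53), control replicate 3 (-0.70) or knockout replicate 2 (-0.41), and on recovered reads (-1.27 with edgeR and -1.36 with DESeq2). Mef2d (chromosome 3, 88142395 to 88169167, plus strand) had 79.2, 169.5 and 91.3 in the controls, against 105, 121 and 87.4 in the knockouts, again highest in control replicate 2. Its log2 fold change was -0.05 (SE 0.27, adjusted p = 0.954) and turned positive without control replicate 2 (0.28) or knockout replicate 3 (0.07). The fourth gene of the family, Mef2b, was listed at 0 in all 6 libraries.

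With all libraries and no block for the replicate number, 0 of the 8 members passed the test. Of the 12591 genes tested, 1.76% did (1.67% higher and 0.0953% lower in the knockouts). At an unadjusted p under 0.05 the count was 1956 of all genes, Myf5 and Six4 among them. Recovered reads gave 0 of 8 with both edgeR and DESeq2. All members passed the filter on low values, a minimum of 1 in 3 or more libraries, and all were at 1 or more in all 6. Groups did not overlap for 3 members in the lower direction, Myf5, Myod1 and Six4, and for 1, Myf6, in the higher. Control replicate 2 and knockout replicate 3, where 1 read was worth 0.952 and 1.23 units, were the nearest libraries for Myf5 and Myf6. They lay within 1 read of each other for Myf5 (241.9 and 241.2) and for Myf6 (6.67 and 7.38), so these separations rest on the scaling. Over all genes tested, 7.81% were lower and 13.4% higher without overlap.

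Leaving out control replicate 2, the library with the highest Myog, changed this picture. Without it 3 members passed, where 6.21% of 12445 genes did (5.3% higher and 0.916% lower). Myog rose with a log2 fold change of 4.81 (SE 0.71, adjusted p = 0.00123) and Mef2a rose with one of 0.97 (SE 0.19, adjusted p = 0.00861). Myf5 fell by 1.002 on the log2 scale (SE 0.22, adjusted p = 0.0140). Mef2c had 1.94 (SE 0.71, adjusted p = 0.125) and passed only with edgeR on recovered reads (2.87, adjusted p = 0.0436). Myf6, Myod1, Mef2d and Six4 did not pass in either fit. No omission of another single library brought a member past the test. Omitting a library because of its values favours a difference, so these results describe the other 5 libraries only.

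**Figure D2:**
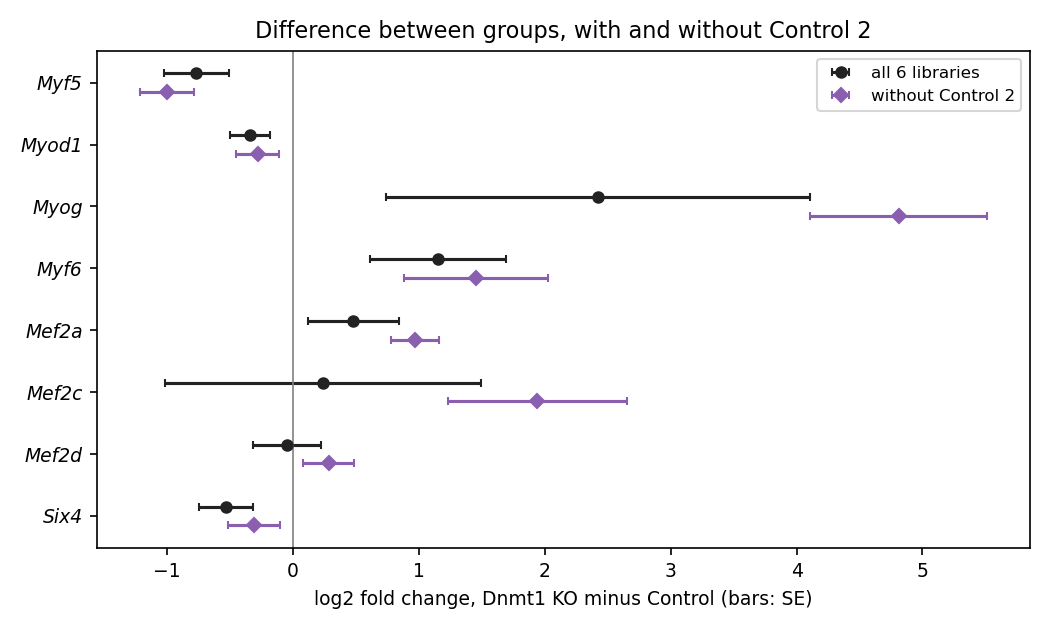
The log2 fold change of each factor, Dnmt1 KO minus Control, with all 6 libraries (black circles) and without control replicate 2 (purple diamonds). Bars are standard errors. Myog moves from 2.43 to 4.81 and Mef2a from 0.48 to 0.97, while Myod1 stays near -0.3 (-0.35 and -0.28).

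Early and late factors were related within each library, where sample handling is shared. The log2 difference of Myog from Myf5 was -3.73, 2.91 and -6.16 in the controls, against 2.09, 1.88 and -1.38 in the knockouts. Myog thus exceeded Myf5 in control replicate 2 and in knockout replicates 1 and 2, and the groups overlapped. The group means were -2.33 ± 4.70 and 0.86 ± 1.94, a difference of 3.19, which became 5.81 without control replicate 2 and 1.28 without control replicate 3. Against Myod1 the log2 difference was -5.94, 0.10 and -7.80 in the controls, against -0.62, -1.001 and -3.70 in the knockouts. Myog exceeded Myod1 in control replicate 2 alone. Gene length does not affect how these differences compare between libraries.

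**Figure D3:**
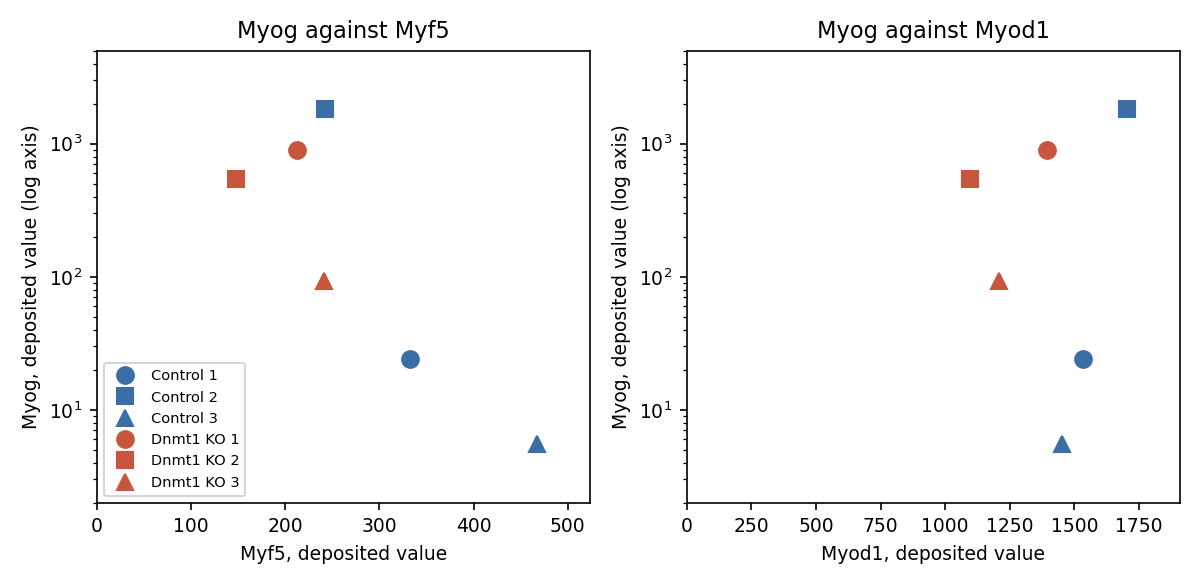
Myog (log axis) against Myf5 on the left and Myod1 on the right, as deposited values, 1 point a library (blue Control, red Dnmt1 KO, replicates 1, 2 and 3 as circle, square and triangle). The libraries with the highest Myf5, control replicates 3 (467) and 1 (332), have the lowest Myog (5.53 and 24.1), and Myod1 differs little between libraries.

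Set on a scale per kilobase of exon, which allows levels of different genes to be compared, the makeup of the bHLH family varied within both groups. Myod1 made up 82.1%, 40.5% and 77.3% of the summed value per kilobase of the 4 family genes in the controls, against 50.9%, 56.9% and 78.0% in the knockouts. Myog made up 1.61%, 54.2% and 0.369% in the controls, against 41.4%, 35.6% and 7.46% in the knockouts. Myf5 made up 5.11% to 22.2% in the controls and 6.82% to 13.9% in the knockouts. Myf6 stayed under 1% in every library, at 0.110% to 0.855%. The summed level was 2271 units per kilobase in control replicate 2 and between 836 and 1477 in the others.

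**Figure D4:**
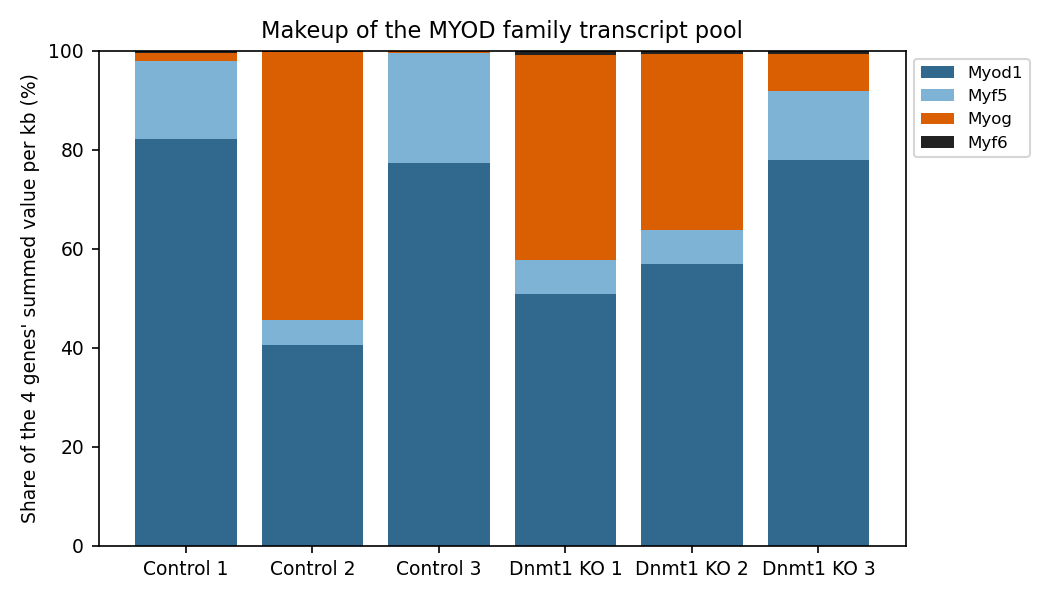
Share of each bHLH factor in the summed value per kilobase of Myod1, Myf5, Myog and Myf6, 1 stacked bar a library. Myog takes 54.2% in control replicate 2, 41.4% and 35.6% in knockout replicates 1 and 2, and 7.46% or less in the other 3.

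In order of the mean level per kilobase, the controls had Myod1 (843 ± 69.6), Myog (417 ± 705), Myf5 (167 ± 54.5), Mef2a (133 ± 85.9), Mef2d (46.1 ± 19.9), Six4 (18.9 ± 5.35), Mef2c (4.81 ± 7.89) and Myf6 (3.76 ± 2.31). Of neighbours in that order, Myod1 with Myog, Myog with Myf5, Myf5 with Mef2a and Mef2c with Myf6 differed by less than their spread. In the knockouts the order was Myod1 (665 ± 81.1), Myog (348 ± 275), Mef2a (167 ± 42.4), Myf5 (96.2 ± 23.0), Mef2d (42.5 ± 6.92), Six4 (12.8 ± 1.32), Myf6 (8.60 ± 3.56) and Mef2c (1.93 ± 1.65). There Myog and Mef2a differed by less than the SD of Myog. Mef2a exceeded Myf5 in all 3 knockouts and in control replicate 2, and Myf5 exceeded Mef2a in control replicates 1 and 3.

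Libraries ranked alike for several members. Mef2a, Mef2c and Myog were all highest in control replicate 2 and next highest in knockout replicates 1 and 2. In the other 3 libraries Mef2c had 2 reads each, so that their order by its value reflects the scaling alone. Mef2a and Myog were both lowest in control replicate 3, followed by control replicate 1 and knockout replicate 3. For Mef2a, control replicates 3 and 1 were nearly level (239 and 241). Control replicate 2 was the highest library for 6 of the 8 members, all but Myf5 and Myf6. Of 7827 candidate genes with a mean value of at least 20, those whose centred log2 values lay nearest to those of Myog over the 6 libraries included Myh3, Myh1, Trim72 and Casq2, at root mean square differences of 0.43 to 0.62. Myh3 and Myh1 encode the embryonic and a fast adult myosin heavy chain, Trim72 a membrane repair protein and Casq2 a calcium store protein. Myh3 had 34.1, 3787 and 7.61 in the controls, against 744, 910.02 and 98.5 in the knockouts. Those nearest to Myf5, at 0.12 to 0.16, included Zmynd19, Brca2, Cdca7 and Mcm10. Brca2 acts in DNA repair, Mcm10 acts in the start of replication and Cdca7 is a cell cycle gene. Cdca7 had 133, 76.2 and 139 in the controls, against 63.1, 45.1 and 78.8 in the knockouts. Likeness is a description over 6 libraries that share their depth and scaling.

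Genes of differentiated muscle, listed here as late targets, were like Myog mostly highest in control replicate 2. The list is not confined to genes that follow Myog. In control replicate 3, where Myog had 5.53, Chrna1 had 1374 and Des 906, while others such as Myh3 (7.61) were low. Of 38 such late targets, all tested, 0 passed with all libraries (34 with a positive log2 fold change, median 0.62, against 0.02 over all genes tested), and 32 were highest in that library. On recovered reads the direction turned, with 12 positive and 26 negative by edgeR (median -0.16). Without control replicate 3, 20 were positive (median 0.14). Their mean log2 value was 4.66, 8.26 and 4.21 in the controls, against 7.11, 7.16 and 5.09 in the knockouts. Myh3, the first myosin of new fibres, had a log2 fold change of 1.96, at an adjusted p of 0.642. Acta1, skeletal actin, had 131, 2570.3 and 191 in the controls, against 1127, 1166 and 309 in the knockouts (log2 fold change 0.88, adjusted p = 0.699). The fusion gene Mymk, listed as Tmem8c, had 25.1, 329 and 15.9 and then 141, 113 and 40.6 (log2 fold change 0.74, adjusted p = 0.745). Mymx, its partner in fusion, listed as Gm7325, was at 0 in control replicates 1 and 3 and knockout replicate 3 and at 50.5 in control replicate 2. Ckm, muscle creatine kinase, stayed at 31.4 or less in every library. Chrna1, a subunit of the acetylcholine receptor, was high in all, from 1334 to 1836 (log2 fold change 0.02, adjusted p = 0.977). Without control replicate 2, 22 of 37 late targets rose and 0 fell (median 1.88), in a fit where 5.3% of all genes tested rose and 0.916% fell and whose library was omitted because of its values. Those that rose included Myh3, Mymk, Acta1, Des, Actc1, Ttn and Neb.

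Among the E proteins that pair with the bHLH factors, 0 of 3 passed. Tcf3 came nearest, with 194, 196 and 218 in the controls, against 135, 141 and 137 in the knockouts (log2 fold change -0.55, SE 0.14, adjusted p = 0.0935). All its knockouts lay below all controls. Tcf3 passed as lower only with a block for the replicate number and with edgeR on recovered reads without control replicate 2. Tcf4 (log2 fold change 0.67, adjusted p = 0.277) did not pass, except without control replicate 2, and Tcf12 had a log2 fold change of -0.0005, at an adjusted p of 0.999.

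Of factors that oppose the bHLH proteins, 14 of 15 were tested and 0 passed (10 positive, median log2 fold change 0.07). The Id proteins, which bind E proteins and keep them from DNA, did not pass. Id1 had a log2 fold change of -0.08, at an adjusted p of 0.887, Id2 one of 0.09 (adjusted p = 0.846) and Id3 one of -0.02 (adjusted p = 0.966). Bhlhe40, a bHLH repressor, went from 19.5 ± 3.71 to 52.2 ± 21.0 and missed the threshold at a log2 fold change of 1.33 (adjusted p = 0.0751). The gene did pass once control replicate 2 was left out, and also with DESeq2 on the recovered reads of all 6 libraries.

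Of 24 upstream regulators and cofactors, 23 were tested, 1 rose and 1 fell (median log2 fold change -0.21). Over all genes tested 1.67% rose and 0.0953% fell, at a median of 0.02. Foxo1, a forkhead factor that restrains myoblast differentiation in culture, rose from a mean of 22.6 ± 8.50 to one of 61.1 ± 14.03, a log2 fold change of 1.43 (SE 0.30, adjusted p = 0.0468). Pax7, which acts upstream of Myf5 and whose gene gives the recombinase line its name, fell from 115 ± 13.6 to 63.1 ± 4.32 (log2 fold change -0.85, adjusted p = 0.0441). Both lost their calls when any 1 library other than control replicate 2 was left out. Pitx3, a homeobox factor of developing muscle, had 15.05, 17.1 and 20.1 in the controls, against 4.301, 3.01 and 7.38 in the knockouts without passing (log2 fold change -1.70, adjusted p = 0.0717). Pax3 lay at 5.02 or less in every library. Of MEF2 repressors and other MEF2 partners, 0 of 4 tested passed (median 0.02).

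Genes of cell cycle exit and of myoblast identity did not pass either, with 0 of 7 and 0 of 16 tested. Cdkn1a, the inhibitor of cyclin-dependent kinases that MYOD1 induces as myoblasts stop dividing, had 255, 836 and 217 in the controls, against 949, 1126 and 587 in the knockouts (log2 fold change 1.25, adjusted p = 0.215). Cdh15, the cadherin of myoblasts, had 101, 302 and 60.2 and then 290, 269.9 and 166 (log2 fold change 0.93, adjusted p = 0.394). As with Myog, control replicate 2 was far from the other controls in both. Without it 2 exit genes, Cdkn1a and Rb1, and 5 identity genes, Cdh15, Megf10, Ncam1, Notch1 and Notch3, rose, and the receptor gene Met fell, again where 5.3% of all genes tested rose and 0.916% fell with that library omitted because of its values.

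**Figure D5:**
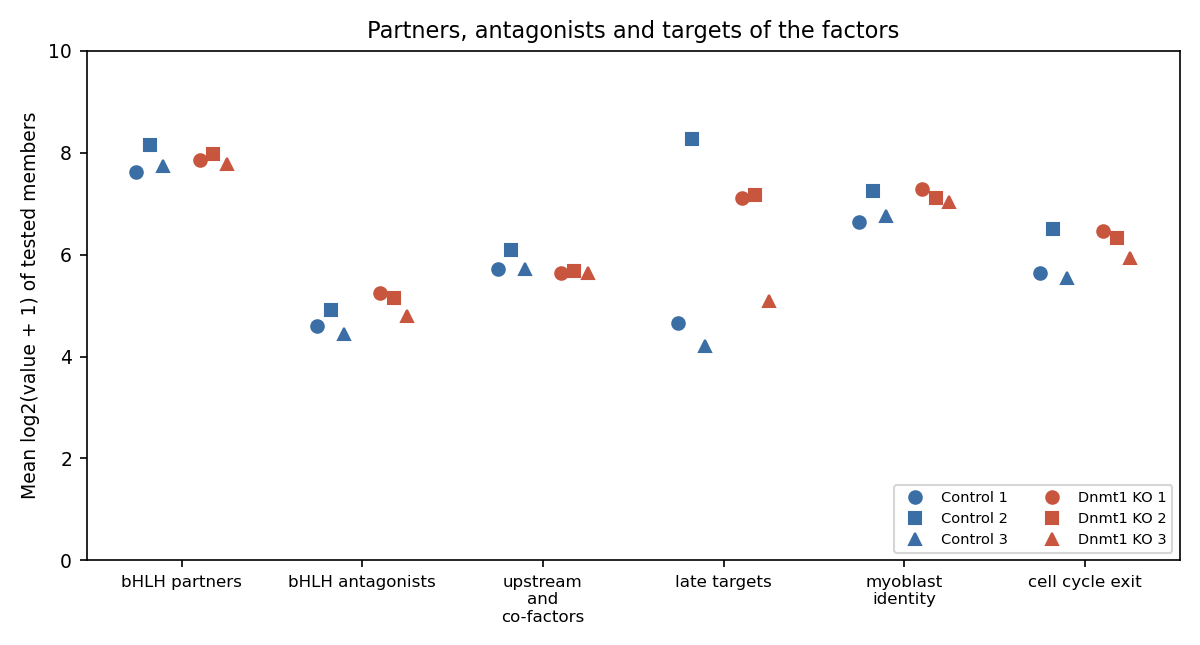
Mean log2(value + 1) of the tested genes of each list in each library (blue Control, red Dnmt1 KO, replicates 1, 2 and 3 as circle, square and triangle). Late targets range from 4.21 in control replicate 3 to 8.26 in control replicate 2, with the knockouts between at 5.09 to 7.16, while the E protein partners stay between 7.62 and 8.15.

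The authors' deposited table gives its own test of each gene, with 351 genes at a q-value under 0.05. In the authors' deposited table none of the members reached that level. In the authors' deposited table the smallest q-value among them was that of Myf5 (p = 0.00535, q = 0.196), and Six4 had p = 0.0436 with q = 0.681.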

How the data were processed

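Poly(A) RNA was made into stranded libraries (TruSeq) and sequenced on a MiSeq, per the labels. Reads were aligned and counted with TopHat and featureCounts on mm10, which the submitters' processing notes name without versions. The authors deposited 1 table with 1 signal column per library: per-gene read counts multiplied by 1 factor per library. Every value (100%) was a whole multiple of the smallest value above 0, within 0.001, so reads were recovered by division, also where 1 read was worth 1.003 units. The p-value and q-value columns were deposited by the authors, with a tool not given in the sources used here. Levels per kilobase use the exon length that the authors deposited as another column.

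Values were compared as log2(value + 1) with limma 3.58.1 (R 4.3.3), with an intensity trend, over genes that reached 1 in 3 or more libraries, with Benjamini-Hochberg adjustment at 0.05 over all 12591 genes. A fold change on this scale understates that of low genes. Alternatives were 3 scalings, 2 filters, another pseudocount (0.1), a block for the replicate number, omission of each library in turn, and, chosen after seeing the data, edgeR 4.0.16 and DESeq2 1.42.0 on recovered reads. On simulated data the fit recovered 59.4% of 2-fold changes and 100% of 4-fold and 8-fold ones, with 10 false calls among 182. All simulated libraries had the same spread, so a library that stands apart, as control replicate 2 did for Myog, was not simulated.

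The members and lists were chosen with earlier results of these data known. Named were all members, a fixed set of partners and targets, list genes past the threshold (Gsn and Laptm5 of the marker lists included) and the 5 genes most like Myog and Myf5. Some genes that this rule names are not reported here. Older symbols matched 3 list genes. Genes singled out beyond these (Tcf4, Bhlhe40, Pitx3, Mef2b, Cd68, Cd14 and those rising without control replicate 2) were chosen after their values were seen. Words of 50 bases from GENCODE M21 transcripts shared with other genes made up 0% for the bHLH genes and Mef2c, 0.486% for Six4, 3.65% for Mef2a and 7.81% for Mef2d.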

Additional observations from a re-analysis of the deposited data

How the results depend on the processing

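Of the members, Myf5, Myod1, Myf6, Mef2a and Six4 kept their direction in every alternative that tested them. Myog reversed on recovered reads (-0.30 with edgeR, -0.31 with DESeq2), and so did Mef2c (-1.27 and -1.36), the comparison there being of group means. Leaving out single libraries gave log2 fold changes of -1.002 to -0.53 for Myf5, 0.75 to 4.81 for Myog, 0.61 to 1.46 for Myf6, -0.64 to -0.31 for Six4, 0.23 to 0.97 for Mef2a, -0.70 to 1.94 for Mef2c and -0.26 to 0.28 for Mef2d. Mef2c reversed without control replicates 1 (-0.53) or 3 (-0.70) or knockout replicate 2 (-0.41), and Mef2d without control replicate 2 (0.28) or knockout replicate 3 (0.07). The cause was not tested.

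Against 210 higher and 12 lower genes with all libraries, leaving out 1 gave 12 to 659 higher and 1 to 114 lower, 0 to 2 members higher and 0 to 1 lower. By list, higher counts were 0 to 22 for late targets, 0 to 5 for myoblast identity (0 to 1 lower), 0 to 2 for cell cycle exit, and 0 to 1 for E protein partners, antagonists, upstream regulators (also lower), fibro-adipogenic and macrophage markers. A pseudocount of 0.1 gave 121 higher and 6 lower, and 0 calls among upstream regulators and both marker lists. Foxo1 also lost its call with median-of-ratios or TMM scaling and with edgeR (0 higher). With the stricter filter, edgeR or DESeq2, 0 fibro-adipogenic markers rose, and DESeq2 called 1 antagonist.

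edgeR on recovered reads without control replicate 2, which was omitted because of its values, called 726 higher and 228 lower of 12655 genes tested. Of the 8 members it called 3 higher (Myog 5.19, Mef2a 0.96, Mef2c 2.87) and 1 lower (Myf5 -1.05), with Mef2d at 0.25. It called as higher 29 of 37 late targets, 5 of 17 identity genes and 2 of 7 exit genes. Also higher was 1 each of 3 partners (Tcf4), 14 antagonists (Bhlhe40), 23 upstream regulators (Foxo1), 6 fibro-adipogenic (Gsn) and 3 macrophage (Laptm5) markers. It called as lower 2 upstream regulators (Pitx3 and Pax7), 1 partner (Tcf3) and 1 identity gene (Met).

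The labels do not say whether replicate numbers pair the libraries, and the values do not settle it. Deviations of same-numbered libraries correlated at -0.06, 0.23 and 0.31, and not every library correlated best with its own number. With the replicate block, 359 of 12591 genes tested were higher and 76 lower. Myf5 passed as the 1 of 8 members (-0.77, adjusted p = 0.0129, limma). Beyond the list calls made without the block, 1 partner (Tcf3) and 1 identity gene were lower. Higher were 1 late target, 1 exit gene and 1 identity gene. Depth limits Myf6 and Mef2c, with as few as 2 reads in a library.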
